A study of Mus musculus with 16 samples.

Results

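The genes described here are those of the proteasome, its activators and its assembly factors, measured on arrays in a mouse kidney tubule cell line. They were chosen by a rule on gene names, set with earlier results of these data known. Every gene on the array whose symbol begins with Psma to Psmg followed by a digit was taken, each through its probe set with the highest mean signal. The rule found 50 genes among 19505 named genes, and each of the 50 had 1 probe set. They comprise 7 alpha and 6 beta subunits of the constitutive core, 3 immunoproteasome subunits and 2 tissue-specific core subunits. A further 6 ATPases and 11 other subunits belong to the regulatory particle. The rest are 5 activators, the core-binding regulator Psmf1, 7 assembly chaperones and 2 genes that match the pattern without being subunits, Psmc3ip and Psme3ip1. The catalytic beta subunit Psmb5 was not analysed here.

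BU.MPT cells, a mouse proximal tubular line, were split into 4 groups with 4 arrays each, 16 in all. H/R cells (hypoxia/reperfusion) spent 3 h near 1% oxygen without glucose or serum, then 1 h in normal medium with both returned. H/R+B12 cells went through the same with 0.3 µM cyanocobalamin, a form of vitamin B12. Control+B12 cells had the vitamin in normal culture, and control cells had normal culture only, with 21% oxygen, 10% serum and 4.5 g/L glucose. All groups were kept at 39 °C in the absence of interferon gamma, the cytokine best known for inducing the immunoproteasome. Oxygen, glucose and serum were changed together, so their effects cannot be told apart. The sample titles of all 8 vitamin-treated cultures read B12, although the descriptions of replicates 2 to 4 carry rising numbers from B13. The labels do not say whether replicates were separate cultures, so p-values measure the spread between these samples, which may be technical.

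The proteasome degrades proteins marked with ubiquitin. Its barrel-shaped core particle, the 20S, stacks outer rings of alpha subunits, which gate the entry, on inner rings of beta subunits, some of which cut the substrate. The 19S regulatory particle caps the barrel, where a base with a ring of ATPases unfolds substrates and a lid removes ubiquitin. In cells exposed to interferon, 3 inducible beta subunits take the places of the constitutive catalytic ones and form the immunoproteasome, which shapes peptides for antigen presentation. Other caps, the PA28 and PA200 activators, open the core without ubiquitin.

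Values are log2 signals as deposited, and differences between groups are log2 fold changes. Array medians over 22206 probe sets lay between 5.21 and 5.37, and the medians of negative control features between 5.72 and 6.23. Arrays of the same group correlated at 0.990 to 0.994. Among the 50 genes 47 had a mean signal above every negative control median. The 3 below were the testis alpha subunit Psma8, the thymus beta subunit Psmb11 and the assembly chaperone Psmg3, whose values are read as near background. Of 10 proximal tubule markers only Aqp1 was above the negative controls in all 16 arrays, and the other 9, Lrp2, Cubn and Hnf4a among them, were below in every array. Of 5 epithelial markers Krt8, Krt18 and Cdh16 were above in all 16 arrays, and Epcam was below in all. None of 5 leukocyte markers, Ptprc and Adgre1 among them, passed the negative control median in any array. The mean signal of the leukocyte list was 3.31 to 3.62 in H/R arrays, 3.13 to 3.47 in control arrays, 3.01 to 4.02 in H/R+B12 arrays and 3.02 to 3.38 in control+B12 arrays. That of the tubule list was 4.00 to 4.45 in H/R, 4.13 to 4.32 in control, 4.08 to 4.33 in H/R+B12 and 4.28 to 4.50 in control+B12. Within these lists Aqp1 fell (-0.79 ± 0.16, limma adjusted p = 0.0019) and Krt18 rose (0.82 ± 0.22, limma adjusted p = 0.0166) in H/R against control. In H/R+B12 against control+B12 Aqp1 fell (-0.87 ± 0.16, limma adjusted p = 0.000925), Krt18 rose (1.43 ± 0.22, limma adjusted p = 0.000251) and Ptprc was called higher (0.93 ± 0.29, limma adjusted p = 0.0365). Ptprc was below the negative controls in all 16 arrays, at 3.19 to 5.26 in H/R+B12 and 3.13 to 3.54 in control+B12. The part of these markers in the results was not tested. With whole cultures as samples, fewer cells of a type and less RNA per cell cannot be told apart.

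The upstream sequence is shown for 4 genes picked from those called in both H/R comparisons. Psmb3, Psmb4 and Psma4 are 3 of the 5 genes that fell in both, and Psmd8 rose in both. Psma1 and Psmc3, which also fell in both, and Psmc2, which also rose in both, are not shown. Each run is the 250 bases before the RefSeq start (mouse build GRCm38.p6), 5′ to 3′ on the gene's strand. Capitals mark matches, on either strand, to the motifs given after the sequences.
Psmb3, chr11:97703184-97703433, plus strand: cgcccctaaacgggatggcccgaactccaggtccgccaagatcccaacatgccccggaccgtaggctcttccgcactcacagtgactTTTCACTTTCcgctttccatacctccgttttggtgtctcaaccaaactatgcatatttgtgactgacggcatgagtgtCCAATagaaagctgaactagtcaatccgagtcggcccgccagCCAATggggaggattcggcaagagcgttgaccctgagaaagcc
Psmb4, chr3:94886959-94887208, minus strand: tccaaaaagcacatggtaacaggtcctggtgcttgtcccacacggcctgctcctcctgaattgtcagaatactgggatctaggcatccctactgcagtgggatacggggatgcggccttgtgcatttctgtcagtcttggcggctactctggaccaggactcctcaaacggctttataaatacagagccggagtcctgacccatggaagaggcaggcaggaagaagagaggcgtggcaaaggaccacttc
Psma4, chr9:54950609-54950858, plus strand: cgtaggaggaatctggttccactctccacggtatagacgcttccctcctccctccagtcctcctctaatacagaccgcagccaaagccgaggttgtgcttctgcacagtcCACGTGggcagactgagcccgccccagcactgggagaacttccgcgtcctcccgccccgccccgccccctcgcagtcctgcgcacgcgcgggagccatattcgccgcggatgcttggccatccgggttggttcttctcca
Psmd8, chr7:29180674-29180923, minus strand: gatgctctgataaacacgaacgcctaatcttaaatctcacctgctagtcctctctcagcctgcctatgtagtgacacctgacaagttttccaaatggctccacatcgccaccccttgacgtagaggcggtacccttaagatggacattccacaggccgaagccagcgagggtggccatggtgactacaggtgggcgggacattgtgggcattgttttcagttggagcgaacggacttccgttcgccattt

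The motifs searched on both strands were the CCAAT box (CCAAT), the hypoxia response element core (ACGTG), the antioxidant response element core (TGACNNNGC), a heat shock element pair (GAANNTTC) and an interferon-stimulated response element core (GAAA, any 2 bases, then GAAA). No printed run held overlapping matches of different motifs. The Psmb3 run held 2 CCAAT boxes, 85 and 43 bases upstream, and a match to the interferon-stimulated element. Psma4 held ACGTG within a palindrome, read once on each strand, and the runs of Psmb4 and Psmd8 held none of the 5 motifs. Promoters were found for 42 of the 50 genes, 46 in all. CCAAT was present in 34.8% of the 46, against 33.8% of all 32851 promoters of the same length, and ACGTG in 17.4% against 16.6%. The antioxidant core was present in 8.70% against 10.2%, the heat shock pair in 4.35% against 6.69% and the interferon core in 6.52% against 2.98%. These matches are descriptions of letters and not sites of binding.

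After H/R without B12, 6 of the 13 constitutive core genes fell and 0 rose. Of the 17 regulatory particle genes 2 rose and 2 fell. By limma, 11 of the 50 genes fell and 2 rose at an adjusted p under 0.05. Those are 22% and 4% of the genes, beside 9.54% of all probe sets called lower, 8.11% called higher and 17.6% in either direction. Most proteasome genes are bright, and bright probe sets were called more often. Among 10261 probe sets with a mean above every negative control median, 18.8% were lower and 16.2% higher. The 22% of proteasome genes that fell was near that level, but this set reaches down to a mean of 6.23. A share among probe sets as bright as the proteasome genes was not computed. The median fold change of the 50 was -0.13, against -0.02 for all probe sets. The plot of fold changes orders the genes by the part they build.

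**Figure D1:**
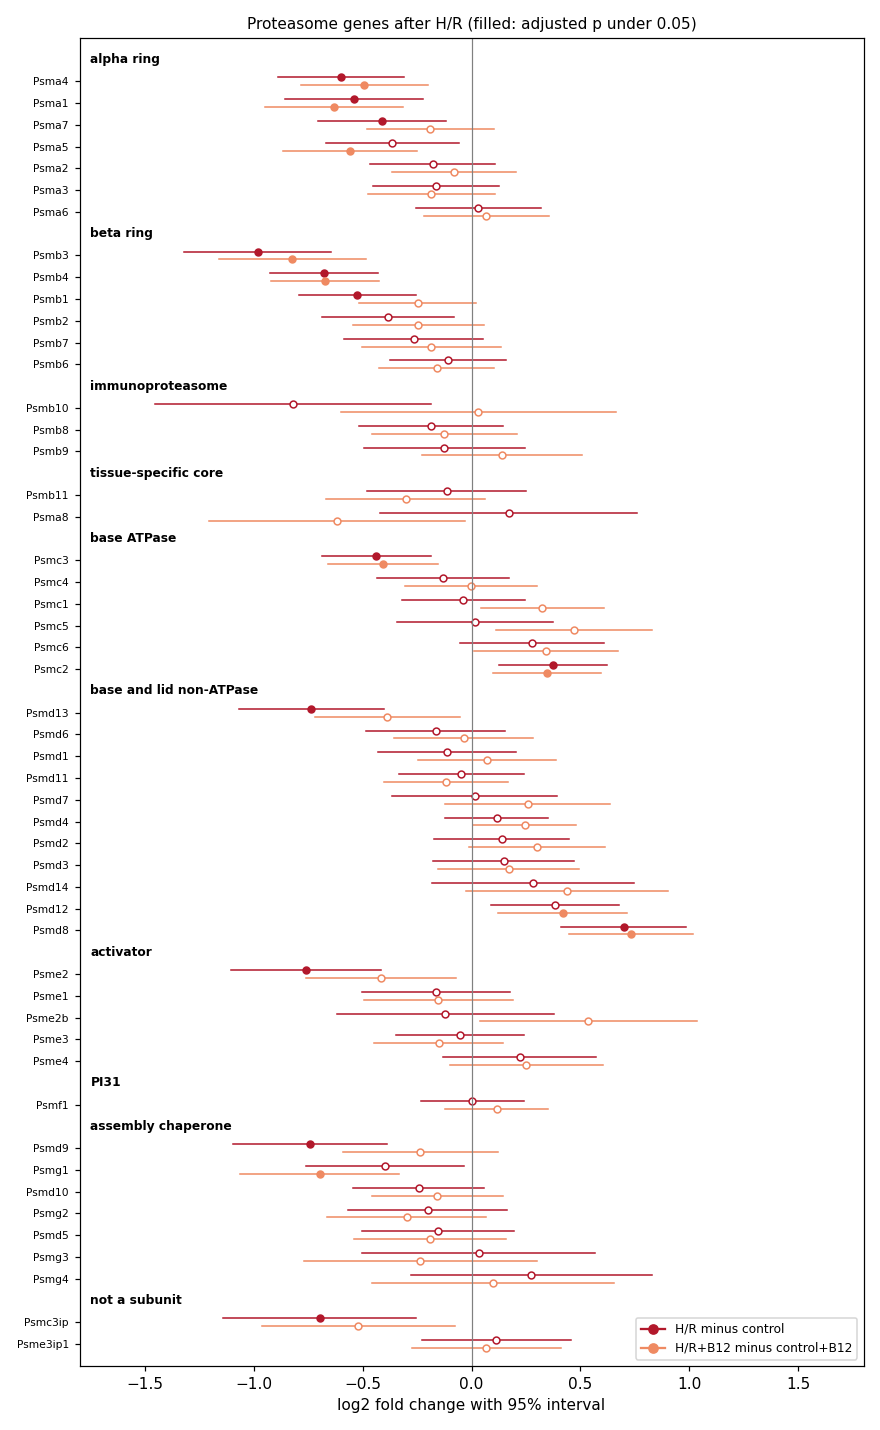
Log2 fold change with its 95% interval for each of the 50 genes, in H/R minus control (dark red) and H/R+B12 minus control+B12 (orange), grouped by role; filled points passed an adjusted p of 0.05. Psmb3 at -0.98 and Psmd8 at 0.70 are the extremes of H/R minus control.

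In the constitutive core those counts are 46.2% lower and 0% higher, with a median of -0.38 over the 13 genes. Among all probe sets 9.54% were lower and 8.11% higher, and among the brighter ones 18.8% and 16.2%. The 13 genes lay between percentiles 85.2 and 97.3 of mean signal, so the brighter set is not matched to them. At an unadjusted p under 0.05 the counts were 8 lower and 0 higher, beside 6120 of the 22206 probe sets in either direction. Without control 1, the array with the highest core mean among controls, 4 of the 13 were called lower. With arrays centred on their medians 5 were lower and the median was -0.31.

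In the beta ring Psmb3, a structural subunit, had the largest fall of the 50 genes. Its signal was 10.90, 11.37, 11.37 and 11.22 in H/R arrays, against 12.59, 12.14, 12.13 and 11.92 in control arrays. Every H/R array was below every control array, and the log2 fold change was -0.98 ± 0.16 (SE, n = 4 against 4; limma adjusted p = 0.000332). Psmb4, another structural beta subunit, had 13.07, 13.06, 13.17 and 12.94 in H/R arrays, against 13.81, 13.66, 13.93 and 13.57 in control arrays. It fell by 0.68 ± 0.12 (limma adjusted p = 0.000571), again without overlap. Psmb1 had 14.11, 14.08, 14.19 and 13.99 in H/R arrays, against 14.72, 14.68, 14.57 and 14.50 in control arrays. It fell by 0.53 ± 0.13 (limma adjusted p = 0.00746), and its groups did not overlap either. Non-overlap in this direction occurred in 11 of the 50 genes and in 11% of all probe sets. Bright probe sets were called more often, but their share without overlap was not computed, here or for the later counts. No excess is therefore read from these counts.

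The remaining beta genes did not pass the test. The catalytic subunits Psmb6, which cuts after acidic residues, and Psmb7, which cuts after basic ones, were at -0.11 (95% interval -0.37 to 0.16) and -0.27 (-0.58 to 0.05). Psmb2 was at -0.38 ± 0.14 (limma adjusted p = 0.0796). It passed without control 2 (0.0339), without H/R 3 (0.0471), after quantile normalization (0.0453), without the dimmest probe sets (0.0496) and with an intensity trend (0.00913).

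Of the 7 alpha subunits, which form the gate and the docking surface for caps, 3 fell. That is 42.9%, beside 9.54% of all probe sets and 18.8% of the brighter ones. Psma4 had 13.10, 13.25, 13.21 and 13.39 in H/R arrays, against 14.07, 13.57, 13.78 and 13.93 in control arrays, with no overlap. Its fold change was -0.60 ± 0.14 (limma adjusted p = 0.0052). Psma1 had 12.84, 12.92, 12.68 and 12.85 in H/R arrays, against 13.71, 13.30, 13.11 and 13.33 in control arrays. Here too the groups did not overlap, and control 1 was the highest of the 8. The fold change was -0.54 ± 0.15 (limma adjusted p = 0.0175), and the call was lost without control 1 (-0.42, 0.06) and without H/R 3 (-0.49, 0.0554).

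Psma7 was the weakest of the alpha calls. It had 11.65, 11.81, 11.85 and 12.06 in H/R arrays, against 12.41, 12.21, 12.42 and 11.98 in control arrays, so H/R 4 lay above control 4. Its fold change was -0.41 ± 0.14 (limma adjusted p = 0.0494), and the call was lost in 17 of 24 alternatives. Leaving out any array other than control 4 or H/R 4 ended it, with adjusted p between 0.0518 and 0.145. Psma5 lay below control in all 4 H/R arrays but did not pass (-0.36 ± 0.15, limma adjusted p = 0.105). Psma2, Psma3 and Psma6 were at -0.18, -0.16 and 0.03.

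**Figure D2:**
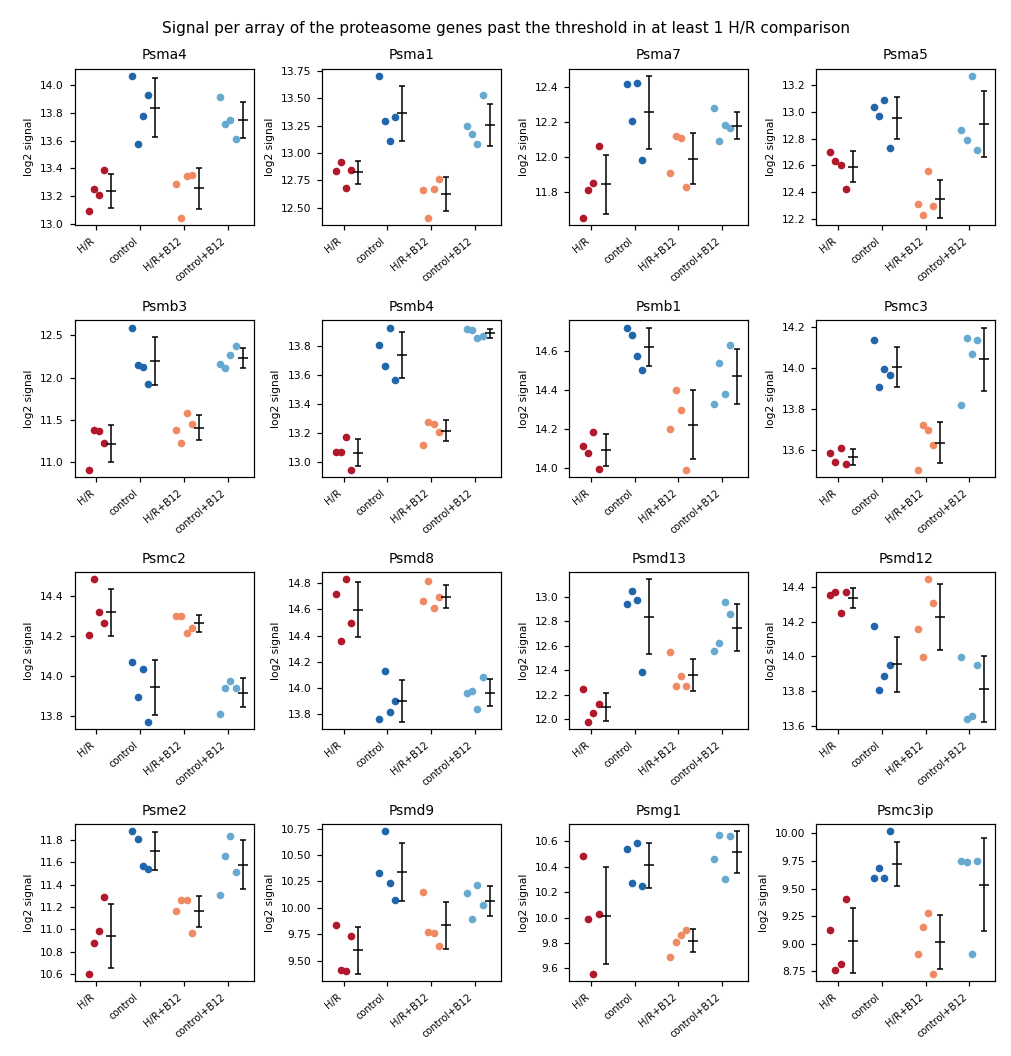
Log2 signal in each of the 16 arrays for the 16 genes past the threshold in H/R against control or in H/R+B12 against control+B12. Points are arrays, and black marks show the group mean with its SD (n = 4). Psmb3, Psmb4 and Psma4 are low, and Psmd8 and Psmc2 high, in every H/R and H/R+B12 array relative to its own control.

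The regulatory particle had 2 genes higher and 2 lower of 17, with a median of 0.02. Those are 11.8% each, near the shares of all probe sets (8.11% and 9.54%) and below those of the brighter ones (16.2% and 18.8%), so the counts are no result about these genes. Psmd8, a lid subunit whose addition completes lid assembly in budding yeast, rose the most of the 50 genes. It had 14.72, 14.36, 14.83 and 14.49 in H/R arrays, against 13.76, 14.13, 13.82 and 13.90 in control arrays. All 4 H/R arrays were above all 4 control arrays, as for 3 of the 50 genes and 9.88% of all probe sets. The fold change was 0.70 ± 0.13 (limma adjusted p = 0.00142).

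In the base, the ATPase Psmc2 had 14.21, 14.48, 14.32 and 14.26 in H/R arrays, against 14.07, 13.90, 14.03 and 13.77 in control arrays. The groups did not overlap, with a fold change of 0.38 ± 0.12 (limma adjusted p = 0.0347). The call was lost when H/R 2 (0.108), 3 (0.0689) or 4 (0.0527) was left out, and likewise control 2 (0.0792) or 4 (0.105). It was also lost with the replicate number as a block (0.0587), with only the 2 groups fitted (0.117) and after quantile normalization (0.0541). Psmc3, another ATPase of the ring, had a lower signal, with 13.59, 13.54, 13.61 and 13.53 in H/R arrays, against 14.14, 13.91, 14.00 and 13.97 in control arrays. It fell by 0.44 ± 0.12 without overlap (limma adjusted p = 0.0158), and with centred arrays it just missed (-0.36, 0.0503). The other ATPases, Psmc1, Psmc4, Psmc5 and Psmc6, ranged from -0.13 to 0.28 and did not pass.

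Among the other lid and base subunits, Psmd13 of the lid had 12.24, 11.98, 12.05 and 12.13 in H/R arrays, against 12.94, 13.05, 12.97 and 12.38 in control arrays. It fell by 0.74 ± 0.16 (limma adjusted p = 0.00312) with no overlap, although control 4 was far below the other controls. Psmd12, a lid scaffold subunit, was above control in all 4 H/R arrays without passing (0.38 ± 0.14, limma adjusted p = 0.0707). It passed without control 1 (0.0429), with centred arrays (0.036), with an intensity trend (0.00841) and without the dimmest probe sets (0.0429). Psmd14, the lid enzyme that removes ubiquitin, was at 0.28 ± 0.22. The ubiquitin receptor Psmd4 was at 0.12 (95% interval -0.12 to 0.35), and the large base scaffolds Psmd1 and Psmd2 at -0.11 and 0.14.

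The means of the gene groups per array show how the core and the regulatory particle stood relative to each other. The mean over the 13 core genes was 13.06 to 13.11 in H/R arrays, against 13.34 to 13.68 in control arrays. The mean over the 17 regulatory genes was 13.13 to 13.19 in H/R arrays, against 13.05 to 13.23 in control arrays. Without B12 the core groups stood apart and the regulatory groups overlapped. With B12 the core mean was 13.07 to 13.19 in H/R+B12 arrays, against 13.40 to 13.48 in control+B12 arrays. The regulatory mean was 13.19 to 13.22 in H/R+B12 arrays, against 12.91 to 13.08 in control+B12 arrays. Here both sets of groups stood apart, the core lower and the regulatory particle higher in H/R+B12. The regulatory mean averaged 13.02 in control+B12 and 13.11 in control arrays, against 13.20 in H/R+B12 and 13.16 in H/R arrays. For the interaction of H/R and B12, 0 of the 17 regulatory genes were called, so a different response with B12 was not shown. Core minus regulatory mean was -0.07 ± 0.02 in H/R arrays and 0.38 ± 0.08 in control arrays (SD, n = 4 each). With the vitamin it was -0.10 ± 0.06 in H/R+B12 arrays and 0.43 ± 0.05 in control+B12 arrays. The value was below 0 in all 8 H/R and H/R+B12 arrays, and 0.27 or more in all 8 control and control+B12 arrays. It shows unequal change within arrays and carries no test, since the genes were chosen with results known. It is not a ratio of amounts, because probe sets differ in brightness.

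**Figure D3:**
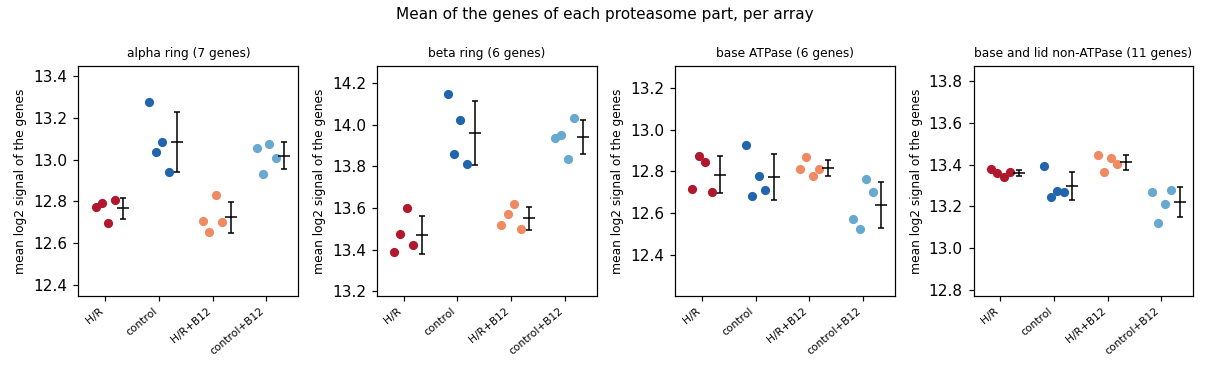
Mean log2 signal per array over the genes of the alpha ring, beta ring, ATPases and other regulatory subunits, in 4 groups, with group mean and SD (n = 4) in black. The vertical axes cover equal spans of log2 signal; the alpha and beta ring means of H/R and H/R+B12 arrays lie below those of their controls.

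The immunoproteasome subunits Psmb8, Psmb9 and Psmb10, which replace Psmb5, Psmb6 and Psmb7 when induced, were 0 of 3 called by limma in any of the comparisons. All 3 were above the negative control median in all 16 arrays of these cultures without interferon gamma, while the 5 leukocyte markers were above it in none. Psmb8 had 13.24, 12.93, 13.52 and 13.12 in H/R arrays, against 13.57, 13.36, 13.52 and 13.09 in control arrays, a fold change of -0.18 (95% interval -0.52 to 0.15). Psmb9 had 9.57, 9.60, 9.82 and 9.84 in H/R arrays, against 10.13, 9.64, 9.91 and 9.65 in control arrays, a fold change of -0.12 (-0.49 to 0.24). In both genes the groups overlapped.

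Psmb10 was more variable. It had 7.59, 8.32, 8.92 and 8.74 in H/R arrays, against 9.66, 9.02, 9.48 and 8.69 in control arrays. H/R 3 and H/R 4 lay above the lowest control. The fold change of -0.82 ± 0.30 did not pass (limma adjusted p = 0.0721, unadjusted p = 0.0142). It passed without control 4 (0.0417), without H/R 3 (0.0414), with array weights (0.0468) and with an intensity trend (0.0218). With B12, Psmb10 had 8.89, 8.82, 9.09 and 8.20 in H/R+B12 arrays, against 8.34, 8.74, 8.53 and 9.27 in control+B12 arrays, a fold change of 0.03 ± 0.30. The interaction of H/R and B12 was 0.85 (95% interval -0.04 to 1.74, limma adjusted p = 0.987), so the difference between these responses was not called.

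Among the activators 1 of 5 fell and 0 rose. That is 20% and 0%, beside 9.54% and 8.11% of all probe sets and 18.8% and 16.2% of the brighter ones. With so few genes these counts are no result about the activators. At an unadjusted p under 0.05 there were 1 lower and 0 higher, beside 6120 of the 22206 probe sets in either direction. Psme2, which with Psme1 forms the PA28 cap induced by interferon, had 10.60, 10.88, 10.98 and 11.29 in H/R arrays, against 11.88, 11.81, 11.57 and 11.54 in control arrays. It fell by 0.76 ± 0.16 (limma adjusted p = 0.0032) with no overlap. Its partner Psme1 had 14.43, 14.40, 14.94 and 14.81 in H/R arrays, against 14.67, 14.70, 15.16 and 14.69 in control arrays, a fold change of -0.16 (95% interval -0.50 to 0.18). Psme2b is a gene copy of Psme2, so the 2 signals may not be separate. It had 8.26, 8.26, 8.33 and 8.63 in H/R arrays, against 8.57, 8.96, 8.89 and 7.55 in control arrays, where control 4 was low, and its fold change was -0.12 ± 0.24.

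The nuclear activators did not pass. Psme3, the PA28 gamma cap, had 14.43, 14.27, 14.47 and 14.13 in H/R arrays, against 14.67, 14.36, 14.21 and 14.28 in control arrays, at -0.05 (95% interval -0.35 to 0.24). Psme4, the PA200 cap, had 13.21, 13.32, 13.07 and 12.90 in H/R arrays, against 13.17, 12.64, 12.79 and 13.02 in control arrays, at 0.22 (-0.13 to 0.57). Psmf1, which binds the core and is known as PI31, was at 0.00 (-0.23 to 0.24), with group means of 11.57 in H/R and 11.56 in control.

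**Figure D4:**
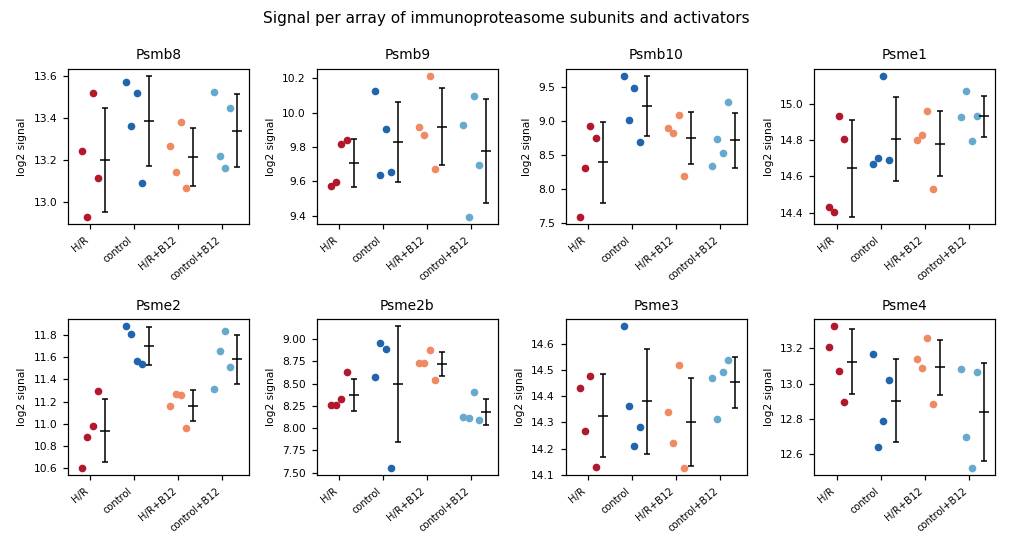
Log2 signal in each of the 16 arrays for the 3 immunoproteasome subunits and the 5 activators, with group mean and SD (n = 4) in black. Psme2 is lower in every H/R array than in every control array, and the H/R and control points of Psmb8, Psmb9 and Psmb10 overlap.

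Of the 7 assembly chaperones 1 fell and 0 rose. That is 14.3% and 0%, beside 9.54% and 8.11% of all probe sets and 18.8% and 16.2% of the brighter ones. With so few genes these counts are no result about the chaperones. At an unadjusted p under 0.05 there were 2 lower and 0 higher, beside 6120 of the 22206 probe sets in either direction. Psmd9, which holds base ATPases before they join the particle, had 9.84, 9.41, 9.41 and 9.74 in H/R arrays, against 10.33, 10.72, 10.24 and 10.08 in control arrays. It fell by 0.74 ± 0.17 without overlap (limma adjusted p = 0.00465). Psmg1, which with Psmg2 guides alpha ring assembly, had 10.49, 9.99, 9.56 and 10.03 in H/R arrays, against 10.54, 10.27, 10.59 and 10.25 in control arrays. Its fold change was -0.40 ± 0.17 (limma adjusted p = 0.138), and without H/R 1 it passed (-0.55, 0.0277). The base chaperones Psmd5 and Psmd10 were at -0.15 and -0.24, and Psmg2, Psmg3 and Psmg4 at -0.20, 0.03 and 0.27.

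Psmc3ip, a recombination factor of meiosis that is not a subunit, had 9.13, 8.76, 8.82 and 9.40 in H/R arrays, against 9.60, 9.69, 9.60 and 10.02 in control arrays. It fell by 0.70 ± 0.21 (limma adjusted p = 0.028) and accounts for 1 of the 11 falls. The call was lost when H/R 2 (0.0887) or 3 (0.082) was left out, likewise control 2 (0.0522) or 4 (0.0883), and with centred arrays (0.0521). Psme3ip1, which binds Psme3, was at 0.11 ± 0.16.

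The same comparison with B12 in both arms uses 8 other arrays, though the fit shares its estimate of the spread. Here 7 of the 50 genes fell and 3 rose, which is 14% and 6%, beside 9.61% of all probe sets lower, 9.04% higher and 18.7% in either direction. Among the brighter probe sets 18.2% were lower and 17.9% higher. The 5 genes that fell in both comparisons were Psma1, Psma4, Psmb3, Psmb4 and Psmc3, or 45.5% of the 11 and 71.4% of the 7. Psmd8 and Psmc2 rose in both. Of the core 5 of 13 fell and 0 rose, or 38.5% and 0% (median -0.24). Of the regulatory particle 1 of 17 fell and 3 rose, or 5.88% and 17.6% (median 0.26). The regulatory share that rose was near that of the brighter probe sets, so these counts are no result about the regulatory genes. At an unadjusted p under 0.05 the core counts were 5 lower and 0 higher, and the regulatory counts 2 lower and 7 higher. Beside them stand 6466 of the 22206 probe sets in either direction.

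Psmb3 had 11.37, 11.22, 11.58 and 11.44 in H/R+B12 arrays, against 12.16, 12.11, 12.26 and 12.38 in control+B12 arrays, a fall of 0.82 ± 0.16 (limma adjusted p = 0.00139). Psmb4 had 13.12, 13.28, 13.26 and 13.20 in H/R+B12 arrays, against 13.92, 13.91, 13.85 and 13.87 in control+B12 arrays, a fall of 0.67 ± 0.12 (limma adjusted p = 0.000608). Psma4 had 13.28, 13.04, 13.35 and 13.35 in H/R+B12 arrays, against 13.92, 13.72, 13.75 and 13.61 in control+B12 arrays. It fell by 0.49 ± 0.14 (limma adjusted p = 0.0181). In these 3 genes the groups did not overlap, as in 10 of the 50 genes and 11.2% of all probe sets. The Psma4 call was lost without control+B12 1 (0.0575), without H/R+B12 2 (0.065) and with centred arrays (0.0526).

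Psma1 fell by 0.63 ± 0.15 (limma adjusted p = 0.00629), to 12.40 to 12.76 in H/R+B12 arrays, against 13.09 to 13.53 in control+B12 arrays. Psma5 fell by 0.56 ± 0.15 (limma adjusted p = 0.0115), to 12.23 to 12.56 in H/R+B12 arrays, against 12.71 to 13.27 in control+B12 arrays. The assembly chaperone Psmg1 fell by 0.70 ± 0.17 (limma adjusted p = 0.00823), to 9.69 to 9.90 in H/R+B12 arrays, against 10.30 to 10.65 in control+B12 arrays. The groups of these 3 genes did not overlap. Psmc3 fell by 0.41 ± 0.12 (limma adjusted p = 0.0231), and its call was lost without H/R+B12 1 (0.0724), without control+B12 2 (0.0638), 3 (0.0512) or 4 (0.0626), with centred arrays (0.0835) and with only the 2 groups fitted (0.0854).

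Psmd8 had 14.66, 14.82, 14.61 and 14.69 in H/R+B12 arrays, against 13.96, 13.98, 13.84 and 14.08 in control+B12 arrays. It rose by 0.73 ± 0.13 (limma adjusted p = 0.000966), with no overlap, as for 7 of the 50 genes and 10.3% of all probe sets. Psmd12 at 0.42 ± 0.14 (limma adjusted p = 0.0458) and Psmc2 at 0.35 ± 0.12 (limma adjusted p = 0.0491) passed narrowly. Psmc2 lost its call without any of the 8 arrays compared, with adjusted p between 0.0694 and 0.121. Psmd12 lost it without control+B12 2 (0.124) or 3 (0.121), or without H/R+B12 1 (0.0671), 3 (0.139) or 4 (0.104). The Psmc2 call was also lost with the replicate number as a block (0.0773), with only the 2 groups fitted (0.1) and after quantile normalization (0.0717). The Psmd12 call was lost under the same settings (0.0539, 0.119 and 0.0795) and with array weights (0.0667). Calls of both also ended without arrays of the other groups, which enter only through the shared spread. These were control 2 and 3 and H/R 1 to 4 for Psmc2, with adjusted p of 0.0506 to 0.0606, and control 3 and 4 and H/R 1 to 4 for Psmd12, with 0.0543 to 0.0571.

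Genes called in 1 of the H/R comparisons and not in the other were not shown to respond differently. Psma7, Psmb1, Psmd9, Psmd13, Psme2 and Psmc3ip fell without B12 and not with it, where their fold changes were -0.19, -0.25, -0.24, -0.39, -0.42 and -0.52. Psma5, Psmg1 and Psmd12 were called with B12 alone. The interaction of H/R and B12 was called by limma for 0 of the 50 genes and 0% of probe sets. At an unadjusted p under 0.05 it was met by 1 of the 50, Psmd9, at 0.51 ± 0.24, beside 1071 of the 22206 probe sets.

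B12 itself moved none of the 50 genes past the threshold. In H/R+B12 against H/R 0 were called, beside 0% of all probe sets. An unadjusted p under 0.05 was met by 0 of them, beside 1010 of the 22206 probe sets. Fold changes ran from -0.24 for Psma5 to 0.36 for Psmb10, with a median of 0.02. All 4 H/R+B12 arrays lay above all 4 H/R arrays for 2 genes, Psmd4 and Psmd13, and below for 1, Psmd11, beside 1.38% and 1.49% of all probe sets. In control+B12 against control 0 were called, beside 0% of all probe sets. An unadjusted p under 0.05 was met by 1, the near-background Psma8 at 0.65 ± 0.28, beside 1280 of the 22206 probe sets. None of the 50 genes had control+B12 and control arrays without overlap in either direction, beside 1.36% of all probe sets for higher and 1.51% for lower. For Psmb3 the intervals were -0.15 to 0.53 in H/R+B12 minus H/R and -0.31 to 0.37 in control+B12 minus control. For Psmd8 they were -0.19 to 0.38 and -0.22 to 0.35, so differences of these sizes were not excluded.

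Genes that work with the proteasome under other names were described from a list of 33, chosen with results of these data known, of which 24 were measured. In H/R against control 5 of 24 rose and 2 fell, with a median of 0.27. Those are 20.8% and 8.33%, beside 8.11% and 9.54% of all probe sets and 16.2% and 18.8% of the brighter ones, among which all 24 lie. The 2 falls were the lid subunit Sem1 and the core maturation factor Pomp. Sem1 averaged 13.22 ± 0.13 in H/R arrays and 14.16 ± 0.15 in control arrays (SD, n = 4 each), a fold change of -0.93 ± 0.13 (SE, limma adjusted p = 8.91e-05). Pomp averaged 12.17 ± 0.29 in H/R arrays and 13.07 ± 0.13 in control arrays, a fold change of -0.90 ± 0.15 (limma adjusted p = 0.000559). Both groups of arrays stood apart in both genes, as in this direction for 11% of all probe sets.

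The 5 rises included the transcription factor Nfe2l1, known for driving proteasome genes when the proteasome is inhibited. It averaged 15.08 ± 0.08 in H/R arrays and 14.48 ± 0.15 in control arrays (SD, n = 4 each), a fold change of 0.60 ± 0.12 (limma adjusted p = 0.00195). Nfe2l2, the factor of the antioxidant response, ran from 9.07 to 9.88 in H/R arrays, against 7.72 to 8.23 in control arrays, at 1.51 ± 0.19 (limma adjusted p = 3.71e-05). The ubiquitin shuttle Rad23b was at 0.73 ± 0.12 (limma adjusted p = 0.000368). The proteasome-binding zinc finger proteins Zfand2a, known to be induced by arsenite and heat, and Zfand5 were at 0.94 ± 0.16 (limma adjusted p = 0.000529) and 0.81 ± 0.12 (0.000157). In all 5 the H/R arrays lay above the control arrays, as for 9.88% of all probe sets. These genes were shown because they were called on the same arrays, so the separation adds no support to the calls.

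With B12 in both arms 9 of the 24 rose and 2 fell, or 37.5% and 8.33%, beside 9.04% and 9.61% of all probe sets and 17.9% and 18.2% of the brighter ones. Sem1 was at -0.84 ± 0.13 and Pomp was at -0.52 ± 0.15 (limma adjusted p = 0.000228 and 0.0251). The same 5 genes rose. The 4 others were Akirin2, which carries proteasomes into the nucleus (0.45), the proteasome-bound thioredoxin-like Txnl1 (0.69), the shuttle Ubqln1 (0.45) and Faf2, a cofactor of the segregase Vcp (0.54). Vcp, the ATPase that extracts ubiquitinated proteins, was at -0.07 ± 0.28 in H/R minus control. The proteasome-bound deubiquitinases Usp14 and Uchl5 were at 0.39 ± 0.22 and -0.05 ± 0.14. Nfe2l1, these 3 genes and the 4 others called with B12 alone were picked to be shown after their values were seen.

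**Figure D5:**
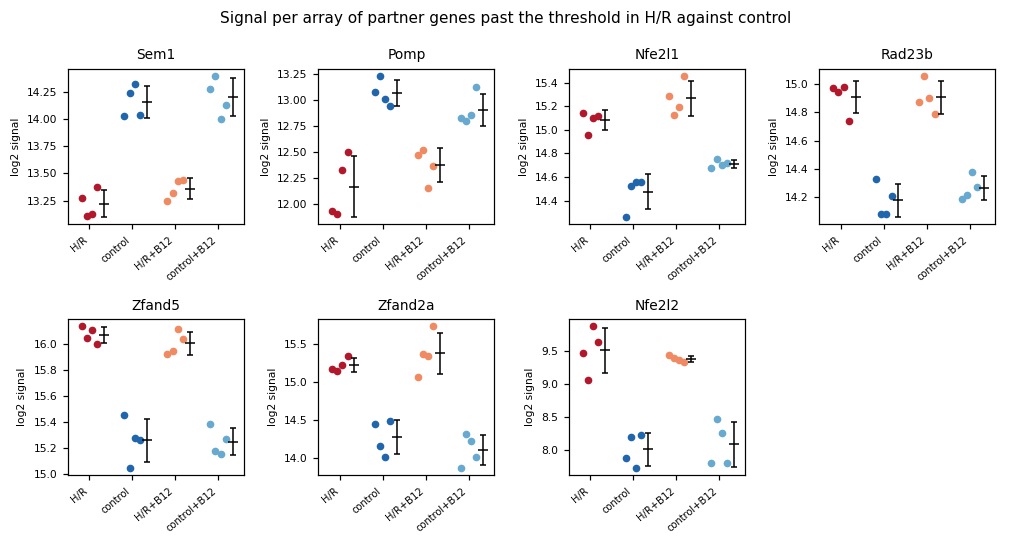
Log2 signal in each of the 16 arrays for the 7 partner genes past the threshold in H/R against control, with group mean and SD (n = 4) in black. Sem1 and Pomp are lower, and Nfe2l1, Rad23b, Zfand5, Zfand2a and Nfe2l2 higher, in every H/R array than in every control array.

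A list of interferon and antigen presentation genes, measured for 11 of 13, had 2 higher and 3 lower in H/R against control, with a median of -0.03. Those are 18.2% and 27.3% of only 11 genes, beside 8.11% and 9.54% of all probe sets and 16.2% and 18.8% of the brighter ones. Tap1, the peptide transporter encoded beside Psmb9, was at 0.98 ± 0.16 (limma adjusted p = 0.000334), while Psmb9 was at -0.12 ± 0.17. Tapbp, which loads peptides onto class I molecules, was at -1.09 ± 0.12, Irf1 at -0.59 ± 0.17, Ifit3 at -1.55 ± 0.16 and Gbp2 at 0.76 ± 0.19 (limma adjusted p from 3.91e-06 to 0.0242).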

How the data were processed

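Gene expression was measured on 16 arrays, 1 per sample. The values are the log2 signals per probe set that the authors deposited. The submitters' processing notes name RMA, Affymetrix Expression Console and Transcriptome Analysis Console, with no version given in the sources used here. Of 28846 features 6640 control features were left out and 22206 probe sets tested. Names came from the platform table, which gives 1 symbol for 19572 probe sets, several for 0 and none here for 2634; all 50 genes kept their symbol in RefSeq (GRCm38.p6). All arrays were fitted as 4 groups with limma 3.58.1 in R 4.3.3 (2-sided, Benjamini-Hochberg over 22206 probe sets, threshold 0.05); 24 alternatives were run, including leaving out each array. The fit was tested on simulated data. The members, lists and naming rule (calls, at most 4 per role, immunoproteasome and activators in any case) were chosen with earlier results of these data known; the percentage among brighter probe sets was added after seeing the data. Same-numbered replicates were checked for pairing: their deviations from group means correlated at -0.07 to 0.08 in 24 pairs, so the main fit has no block. The number of arrays, 4 per group, limits precision.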

Additional observations from a re-analysis of the deposited data

Results flagged for a closer look

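A sample far from the other 3 of its group was looked for in 200 groups of 4 arrays (50 genes in 4 groups), and 11 stood apart by Dixon's criterion for 4 values; chance flags about 1 in 20 groups. In H/R these were Psmd2 in replicate 1 (13.70, others 14.03 to 14.05), Psmd12 in replicate 3 (14.25, others 14.35 to 14.37) and Psmd11 in replicate 4 (13.25, others 13.38 to 13.40). In control+B12 they were Psma6 in replicate 2 (12.87, others 13.24 to 13.25), Psmb2 in replicate 4 (14.60, others 14.30 to 14.34) and, in replicate 3, Psmb11 (3.25, others 3.55 to 3.61), Psmc3ip (8.90, others 9.74 to 9.75) and Psme2b (8.41, others 8.09 to 8.13). In control they were Psme1 in replicate 3 (15.16, others 14.67 to 14.70) and, in replicate 4, Psmd13 (12.38, others 12.94 to 13.05) and Psmd6 (11.64, others 11.32 to 11.36). Psmc3ip passed in H/R+B12 against control+B12 once control+B12 3 was left out (-0.73, limma adjusted p = 0.012), against -0.52 and 0.102 with all arrays.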

How the results depend on the processing

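In H/R against control, 8 of the 13 calls held under all 24 alternatives (Psma4, Psmb1, Psmb3, Psmb4, Psmd13, Psmd8, Psmd9 and Psme2), 5 were lost under some and 5 other genes were called under some. In H/R+B12 against control+B12, 6 of 10 held (Psma1, Psma5, Psmb3, Psmb4, Psmd8 and Psmg1), 4 were lost and 7 gained under some. No called gene changed direction in either comparison under these alternatives. Not all of them could change a fold change. Taking the mean of a gene's probe sets could not, since each of the 50 genes had 1 probe set. Leaving out an array of a group not compared could not either, as it alters only the shared spread. The count of genes higher in H/R against control, 2, was 1 with the replicate block, with only the 2 groups fitted and after quantile normalization. In H/R+B12 against control+B12 the 3 higher became 1 with the replicate block, 1 after quantile normalization and 5 with an intensity trend and robust variances. Leaving out each array gave 1 to 3 higher and 9 to 11 lower without B12, and 1 to 3 higher and 6 to 8 lower with it. With the replicate block 10 and 7 genes were lower; same-numbered arrays were not treated as paired, since their deviations correlated at -0.07 to 0.08, and 7 of 16 arrays correlated best with their own number. With centred arrays 8 genes were lower and 3 higher in H/R against control, and 5 lower and 4 higher in H/R+B12 against control+B12. The median of the regulatory particle in H/R against control lay between -0.03 and 0.11 with each array left out, and that of the core between -0.44 and -0.32. The B12 comparisons and the interaction gave 0 calls in the 50 genes under every alternative run. The fit of only the 2 groups was not run for the interaction. The cause of these changes was not tested. Signals of Psma8, Psmb11 and Psmg3 near the negative controls limit what their values show.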
